A study of Mus musculus with 6 samples.

Results

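The genes of the mitochondrial respiratory chain were examined in DN3 thymocytes, by complex and by the genome that encodes them. They were the protein-coding genes of the deposited table whose GENCODE M21 symbol begins with Ndufa, Ndufb, Ndufc, Ndufs or Ndufv and a digit, with Uqcr, Cox4 to Cox8, Atp5 or mt-, or is Sdha, Sdhb, Sdhc, Sdhd or Cycs. This gave 94 genes of the 21135 in the table, of which 81 are nuclear and 13 are the protein genes of the mitochondrial genome. A further 5 annotated genes met the rule but were not among the listed genes (Cox7b2, Cox8b, Cox8c, Ndufa4l2 and a second gene model named Atp5o). The rule works by symbol, so that Cyc1 (cytochrome c1 of complex III) and Ndufab1 (the acyl carrier subunit of complex I) fall outside it, and Ndufa4 is counted with complex I although its protein is now known to work with complex IV.

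The study holds 6 RNA sequencing libraries of C57BL/6 mice, in 2 genotypes. In 3 libraries NMe, the Notch-dependent enhancer of Myc, was wild type. In the other 3 libraries GATA site 1 and GATA site 2 of NMe were mutated on both alleles, and the wild-type libraries carried neither change. Whether each library came from a separate animal, and whether animals were pooled, is not stated in the labels, and a p-value here reflects only how these libraries vary. DN3 is the stage of CD4- CD8- thymocytes at which the T-cell receptor beta gene is rearranged. The age of the mice is not in the labels. The comparison, mutant against wild type, addresses what the GATA sites of this enhancer contribute to the transcriptome of these cells.

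As background, the chain passes electrons from NADH through complex I and from succinate through complex II to ubiquinone, then through complex III, cytochrome c and complex IV to oxygen, and complexes I, III and IV pump protons across the inner mitochondrial membrane. Complex V, the ATP synthase, lets the protons return through a ring of c subunits in the membrane and makes ATP in its F1 head. Most subunits are encoded in the nucleus and imported. The mitochondrial genome encodes subunits of complexes I, III, IV and V and none of complex II, and its transcripts are cut from long precursors. In thymocytes the passage through the DN stages is a phase of growth and division, and MYC is known to promote the expression of genes for mitochondrial biogenesis.

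Recovered reads ran from 38.6 to 51.3 M per library, and all values below are normalised reads, that is reads divided by a size factor for each library. Myc, the gene of the mutated enhancer, stood at 19153 ± 1079 (SD, n = 3) in wild type and 5446 ± 783 in mutant, 3.52-fold lower (log2 change -1.82 ± 0.12, adjusted p = 4.22e-05), with no overlap. The genotypes lay apart on the leading principal component (42.0% of the variance), and wild type replicate 3 lay away from the other wild-type libraries on the next (17.1%). Of all 17815 tested genes, 10.9% were lower and 7.94% higher in the mutant (limma, adjusted p under 0.05), a split of 1938 to 1414 that became 1648 to 1828 when every library was rescaled to the same total. All 9 DN3 markers were present at 4390 reads or more in each library, among them Il2ra (CD25), Ptcra, Rag1 and Notch1. Of these, 5 rose and Rag1 fell. Markers of other cells moved as well: 5 of 5 genes of gamma-delta T cells rose, with a summed level of 40118 to 48565 in wild type and 59598 to 96829 in mutant, and 2 of 5 genes of earlier progenitors fell (Bcl11a and Mef2c, list sum 4303 to 5121 against 2656 to 3776). No marker of CD4+ CD8+ thymocytes passed (0 of 3 with limma, edgeR and DESeq2, 1 at an unadjusted p under 0.05, sum 235 to 260 against 213 to 267). The B, myeloid, dendritic and NK cell lists had 8 tested markers in all and 0 called by limma, edgeR or DESeq2, with 0 at an unadjusted p under 0.05. Ms4a1, Pax5, Siglech, Batf3, Ncr1 and Klrd1 were not among the listed genes. Globin and Alas2 reads, of erythroid cells, summed to 16.0 to 8177 in wild type, the highest in replicate 2, and to 34.2 to 56.1 in mutant (0 of 5 called by limma, also at an unadjusted p under 0.05, 0 by DESeq2 and 2 lower by edgeR). Of 3 stromal genes Pecam1 rose (list sum 8228 to 10042 against 9978 to 13538). Immediate early and heat shock genes, which respond to handling, summed to 442519 to 727659 in wild type and 524058 to 921662 in mutant, and 3 of 14 rose (Egr1, Ier2 and Ier3). The part of these other cells and of handling in the results below was not tested.

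Nuclear genes of every complex of the respiratory chain fell in the mutant, by small amounts, while the transcripts of the mitochondrial genome had estimates in both directions and none passed with limma or edgeR (1, mt-Nd2, was higher with DESeq2 and with voom). Of 80 nuclear members tested, 32 fell (40.0%, against 10.9% of all tested genes) and 0 rose (against 7.94%). The 0 also holds for edgeR, DESeq2 and limma's voom and for rises at an unadjusted p under 0.05. The remaining member, Cox4i2, lay under the filter of a mean of 10 reads. The estimate was negative in 78 of 80, with a median log2 change of -0.30 (0.03 over all tested genes). Falls that passed ran from 1.26-fold to 1.71-fold. In 44 of the 80 all 3 mutant libraries lay below all 3 wild-type libraries (55.0%, against 20.3% of all tested genes), and in 0 did they lie above (against 18.0%). Of the 13 mitochondrially encoded members, 0 passed with limma, 7 had a negative and 6 a positive estimate, and the median log2 change was -0.06. The positive estimates were all in complex I (6 of its 7 genes), and every estimate in complexes III, IV and V was negative. The intervals of the log2 change include the nuclear median of -0.30 for all 13 except mt-Nd1, mt-Nd2, mt-Nd4 and mt-Nd6. For the others, a fall of the nuclear size is therefore not excluded. In bulk RNA, fewer cells of a type and less RNA per cell cannot be told apart.

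**Figure D1:**
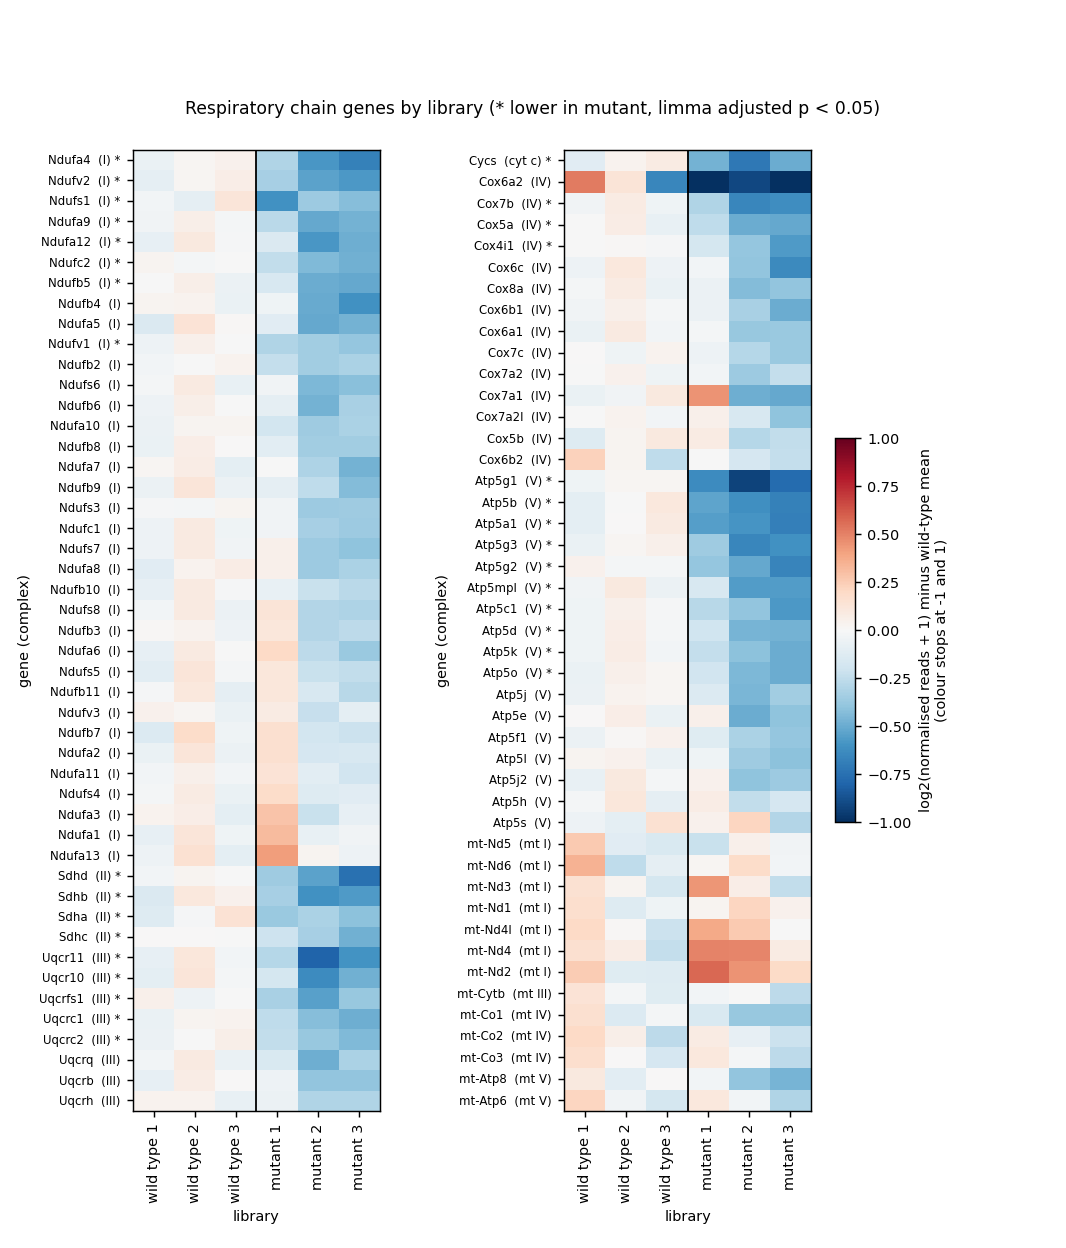
Colour gives log2(normalised reads + 1) of each respiratory chain gene in each of the 6 libraries (columns) minus the gene's wild-type mean, for 79 of the nuclear members by complex and then the 13 mitochondrial ones (marked mt). Blue is lower and red higher; an asterisk marks genes that fell, and the mutant 1 column is paler than mutant 2 and mutant 3 in most nuclear rows.

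The 3 mutant libraries were not lowered equally. Over the 80 nuclear members the median log2 difference from the wild-type mean was -0.05, 0.05 and -0.02 in wild type replicates 1, 2 and 3, and -0.10, -0.38 and -0.40 in mutant replicates 1, 2 and 3. Mutant replicate 1 was the highest mutant library in 75 of 80 members (93.8%, against 37.1% of all tested genes), and in 36 of 80 it stood above the lowest wild-type library, against 4 for mutant replicate 2 and 4 for mutant replicate 3. Without it, 52 nuclear members fell (65.0%, against 10% of all genes tested that way), 31 of them among the 32 above, and without wild type replicate 2, the highest wild-type library in 53 of 80 members, 10 fell. The 6 fits that each leave out 1 library called 10, 14, 17, 17, 19 and 52 nuclear members lower and 0 higher. Members that fell in all 6 numbered 10: Atp5g1, Atp5g2, Atp5g3, Atp5a1, Atp5b, Cycs, Sdhd, Ndufv2, Ndufa4 and Ndufs1.

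With edgeR on the recovered reads 30 nuclear members fell (37.5%, against 10.2% of all genes), and with DESeq2 34 (42.5%, against 12.8%). With the change regressed on exon length, GC content and level over all genes, 21 fell (26.3%, against 11.5%) and Ndufa1 and Ndufa13 rose, and the median log2 change of the 80 became -0.17. That fit ended the calls of 13 of the 32 members, among them Ndufv1, Ndufc2, Ndufb5, Ndufa12, Sdha, Uqcrfs1, Uqcr11, Uqcr10, Cox4i1, Atp5d, Atp5k and Atp5mpl. Across the 80 genes, all measured in the same 6 libraries and given here as a description, the log2 change ran with level (Spearman's rho -0.35) and with exon length (rho -0.25), so that longer and more abundant members had the lower estimates. After the correction rho was -0.25 with level, -0.56 with exon length and 0.33 with GC content (0.07 before). Among these members the correction thus weakened the relation to level but strengthened those to exon length and GC content. Of the 16 members with a mean of 10000 reads or more, 11 fell (68.8%), where 30.1% of all 879 genes at that level fell. Of the 64 below it, 21 fell (32.8%), where 9.87% of 16912 did. Those 16912 genes have means from 10 reads up and were not matched in level to the 64 members.

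**Figure D2:**
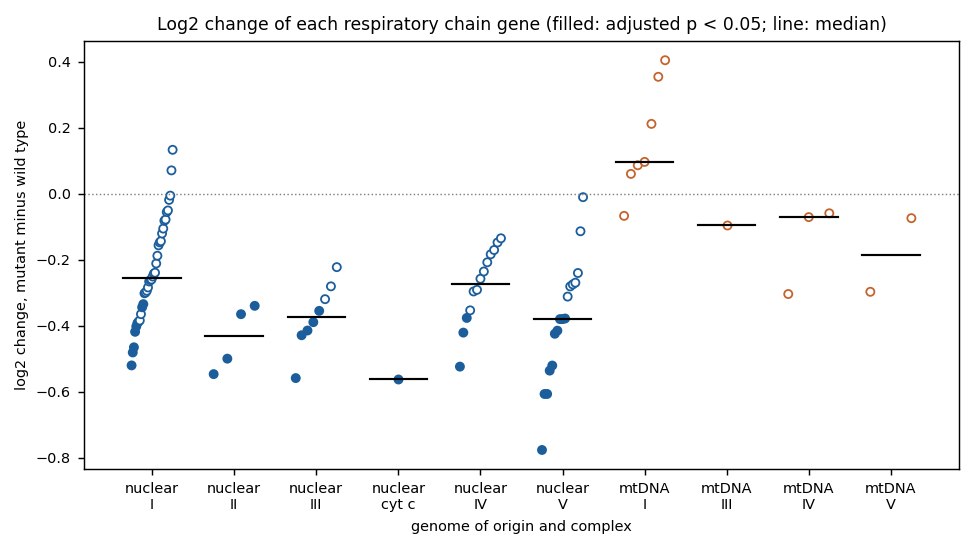
Each point is a gene, its height the log2 change between mutant and wild type, grouped by genome of origin and complex (blue nuclear, orange mitochondrial, filled where the limma adjusted p is under 0.05); the line is the median of all tested members. Cox6a2, at -1.76, lies outside the axis and is not drawn; all filled points are nuclear and below 0.

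Promoter sequences are shown for a few members, to set those that fell beside those that did not. Sequences of 250 bases before to 50 after the start of transcription came from RefSeq (GRCm38.p6) and were found for 65 of the 81 nuclear members. They were searched on both strands for the site of NRF1, a regulator of respiratory chain genes (GCGCA, any base, GCGC); for CCGGAAG, an ETS motif of the kind bound by GABPA (NRF2), another such regulator; and for CACGTG, the E-box of MYC and MAX, which reads the same on both strands. The NRF1 motif lay in 16 of 65 member promoters (24.6%), against 9.59% of all 11861 promoters in the table. The ETS motif lay in 15 (23.1%, against 17.0%) and the E-box in 5 (7.69%, against 9.59%). Of 25 promoters of members that fell, 7 held the NRF1 motif, 4 the ETS motif and 3 the E-box; of the 40 of members that did not pass, 9, 11 and 2 did. The windows below are 80 bases long, lie within the 250 bases before the start and show the motifs in capitals.
Atp5g1, chr11:96075670-96075749, - strand: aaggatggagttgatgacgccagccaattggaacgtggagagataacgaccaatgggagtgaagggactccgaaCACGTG
Atp5g3, chr2:73911497-73911576, - strand: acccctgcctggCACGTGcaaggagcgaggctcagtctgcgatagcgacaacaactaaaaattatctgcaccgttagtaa
Ndufv1, chr19:4012876-4012955, - strand: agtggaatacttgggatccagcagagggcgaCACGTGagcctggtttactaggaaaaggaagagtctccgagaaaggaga
Sdha, chr13:74350281-74350360, - strand: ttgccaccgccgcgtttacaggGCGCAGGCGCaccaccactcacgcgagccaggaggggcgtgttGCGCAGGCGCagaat
Sdhd, chr9:50603870-50603949, - strand: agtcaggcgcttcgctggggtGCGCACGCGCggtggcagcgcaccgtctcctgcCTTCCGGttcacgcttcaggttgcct
Cox6a1, chr5:115349049-115349128, - strand: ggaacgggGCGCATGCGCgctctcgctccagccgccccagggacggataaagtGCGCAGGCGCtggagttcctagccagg
Ndufs5, chr4:123718227-123718306, - strand: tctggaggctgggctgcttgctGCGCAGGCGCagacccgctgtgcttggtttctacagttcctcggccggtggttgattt
Atp5g1, Atp5g3 and Ndufv1 are the 3 members that fell and hold the E-box. Atp5l and Ndufa7 hold it as well and did not pass, and their windows are not shown. Sdha and Sdhd also fell; the Sdha window has a pair of NRF1 motifs with the same letters, and the Sdhd window has an NRF1 motif and, an ETS motif read on the opposite strand, which do not overlap. Cox6a1 and Ndufs5 carry NRF1 motifs too and did not pass (log2 changes -0.26 ± 0.11 and -0.12 ± 0.12). Motifs outside the windows were counted as well: an NRF1 motif in Sdha and in Atp5g3, and an ETS motif in Cox6a1. Some RefSeq starts lie far from the GENCODE start of the gene, such as that of Atp5d (3643 bases). A match describes these letters only.

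Complex V held the largest falls of the chain, and its median log2 change was -0.38. Of its 17 members, 10 passed, all lower (58.8%, against 10.9% of all tested genes). Leaving out mutant replicate 1 gave 15, and leaving out any other library 5 (wild type replicate 2) or 6. All 3 genes for the c subunit, whose mature protein is the same and forms the membrane ring, fell. Atp5g1 (chromosome 11, 96068852 to 96075670 on GRCm38) had 13186, 13735 and 13731 reads in wild type and 8744, 7127 and 7936 in mutant. The genotypes were far apart, with means of 13551 ± 316 and 7936 ± 809 (SD, n = 3 each). It was 1.71-fold lower (log2 change -0.78 ± 0.10, adjusted p = 0.000823), the lowest estimate among the 32 members that fell. Atp5g3 had 21135, 22432 and 22912 reads against 17352, 14069 and 14588 (log2 change -0.54 ± 0.10, adjusted p = 0.00570). Atp5g2, the least abundant of the genes per kilobase of exon in wild type (1823 against 2759 for Atp5g1 and 10160.3 for Atp5g3), had 3148, 3006 and 3007 against 2335, 2139.5 and 1927 (log2 change -0.52 ± 0.11, adjusted p = 0.00955). None of the 3 overlapped between genotypes.

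In the F1 head, which binds and turns over nucleotides, 4 of 5 genes fell (80.0%, against 10.9% of all tested genes). These 4 have means of 10000 reads or more, a level at which 30.1% of all 879 genes fell. Atp5b, the catalytic beta subunit and the most abundant nuclear member per kilobase of exon (25314 reads; chromosome 10, 128083273 to 128090391), had 99925, 106586 and 115253 reads in wild type and 74205, 69892 and 66981 in mutant. That is 1.52-fold lower (log2 change -0.61 ± 0.09, adjusted p = 0.00170, 95% confidence interval -0.81 to -0.41), with the lowest wild-type library well above the highest mutant library. Atp5a1, the alpha subunit, had 49436, 53001 and 56392 against 36046, 35185 and 32973 (log2 change -0.61 ± 0.09, adjusted p = 0.00154), a change of the same size as that of its partner. Atp5c1, the gamma subunit that forms the rotating shaft, had 21122, 22580.3 and 21594 against 17914, 16549 and 14652 (log2 change -0.42 ± 0.10, adjusted p = 0.0156). Atp5d, the delta subunit, fell by 0.38 on the log2 scale (adjusted p = 0.0276), and Atp5e, the small epsilon subunit, was at -0.28 ± 0.14 (adjusted p = 0.193), where mutant replicate 1 lay within the wild-type range.

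Among the 9 other members of complex V, in the stator stalk, the membrane part and accessory proteins, 3 fell (33.3%, against 10.9% of all genes). They were Atp5o, the stalk subunit that meets the F1 head (log2 change -0.38 ± 0.10, adjusted p = 0.0318), Atp5k, the membrane subunit e (log2 change -0.38 ± 0.11, adjusted p = 0.0362), and Atp5mpl, a small proteolipid (log2 change -0.42 ± 0.12, adjusted p = 0.0393). Atp5j and Atp5f1, both of the stalk, had all mutant libraries below all wild-type ones and did not pass (-0.31 ± 0.10, adjusted p = 0.0573, and -0.28 ± 0.09, adjusted p = 0.0703). Atp5l, the membrane subunit g, was at -0.27 ± 0.12 (adjusted p = 0.145). Atp5h, the stalk subunit d, stood at 15983, 17479 and 15204 reads in wild type and 17016, 13676 and 14398 in mutant (log2 change -0.11 ± 0.11, adjusted p = 0.492), and Atp5j2, the membrane subunit f, at 8926, 10072 and 9291 and 9686, 7135 and 7330.4 (log2 change -0.24 ± 0.13, adjusted p = 0.210). For Atp5s, a coupling factor rather than a core subunit, the counts were 1173, 1137 and 1348 and 1252, 1414 and 993 (log2 change -0.01 ± 0.15, adjusted p = 0.969). The genotypes overlapped for each of these 3.

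**Figure D3:**
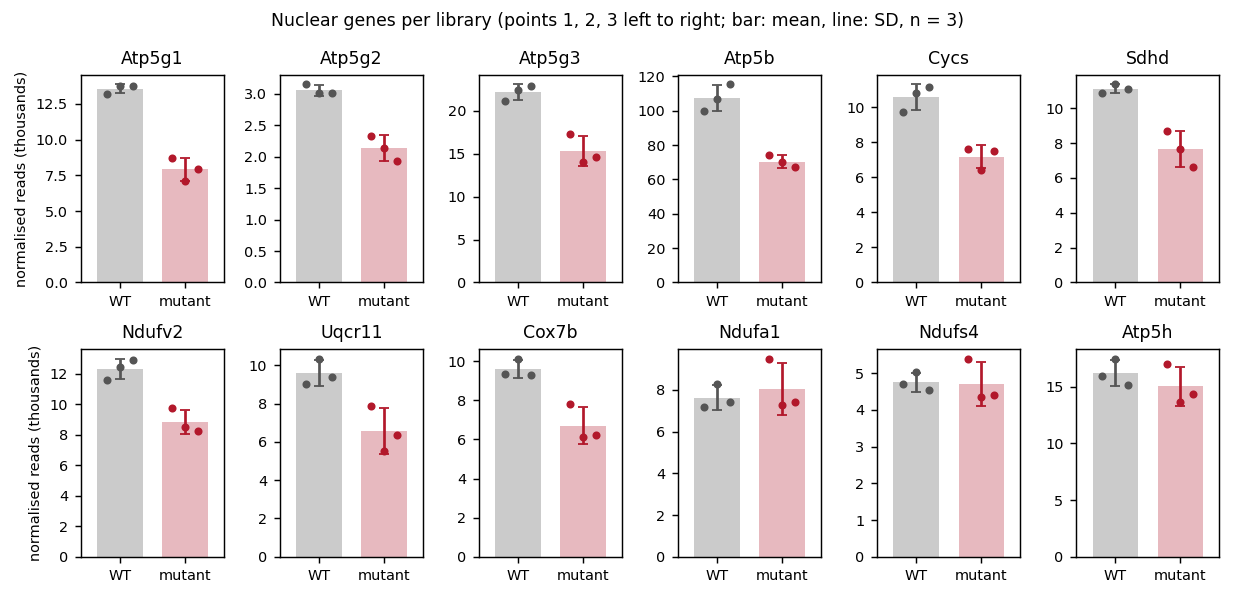
Normalised reads (axis in units of 1000) for 12 nuclear members, with points for replicates 1, 2 and 3 from left to right, bars for the mean and lines for the SD (n = 3). In the first 9 panels (Atp5g1 to Cox7b) the mutant points lie below the wild-type points; in the last 3 (Ndufa1, Ndufs4 and Atp5h) they overlap, and mutant replicate 1 is the highest mutant point in all 12.

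Complex II, succinate dehydrogenase, is wholly nuclear and had a median log2 change of -0.43. Its 4 genes all fell (against 10.9% of all tested genes). Without wild type replicate 2 only 1 of them passed, and without wild type replicate 3 or mutant replicate 2 or 3 there were 2. Sdhd, a membrane anchor that binds ubiquinone (its promoter is shown above), had 10905, 11372 and 11129 reads in wild type and 8719, 7664 and 6623 in mutant (log2 change -0.55 ± 0.11, adjusted p = 0.00783). Sdhb, the iron-sulfur subunit, had 12669.7, 15043 and 14380.5 against 11142, 9205 and 9447 (log2 change -0.50 ± 0.11, adjusted p = 0.0109). Sdha, the flavoprotein that oxidises succinate, had 24972, 27064 and 30159 against 21145, 21950.3 and 20547 (log2 change -0.37 ± 0.09, adjusted p = 0.0239). Sdhc, the other membrane anchor, had 4824, 4818 and 4804 against 4166, 3832 and 3449 (log2 change -0.34 ± 0.10, adjusted p = 0.0438). No wild-type library was as low as any mutant library in these genes, and the wild-type counts of Sdhc differed by under 20 reads. Over the 21 alternative fits, Sdhd fell in 20, Sdhb in 19, Sdha in 14 and Sdhc in 11.

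Complex I, NADH dehydrogenase, had 9 of 36 nuclear members lower (against 10.9% of all tested genes) and 0 higher (against 7.94%), with a median log2 change of -0.26. The count was 17 without mutant replicate 1, between 3 and 4 without wild type replicate 2 or 3 or mutant replicate 2 or 3, and 5 lower and 2 higher with the gene-property correction, where the median was -0.08. Its core subunits carry the flavin and the iron-sulfur clusters, and the accessory ones surround them. Ndufv2, of the NADH-oxidising module, had 11591, 12449 and 12911 reads in wild type and 9764, 8506 and 8245 in mutant (log2 change -0.48 ± 0.10, adjusted p = 0.00856). Ndufs1, the largest iron-sulfur subunit, had 8007, 7707 and 8876 against 5375, 6369 and 6076 (log2 change -0.47 ± 0.10, adjusted p = 0.0126), and here mutant replicate 1 was the lowest library. Ndufv1, which holds the flavin (promoter above), had 8413, 9008 and 8705 against 7060.2, 6848 and 6668 (log2 change -0.34 ± 0.09, adjusted p = 0.0220). In all 3 genes the genotypes were apart. The core genes Ndufs3, Ndufs7 and Ndufs8 were at -0.25 ± 0.11, -0.24 ± 0.13 and -0.16 ± 0.13 and did not pass (adjusted p 0.156, 0.224 and 0.421).

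Of the accessory subunits, Ndufa4 had 10178, 10801 and 10930.2 reads in wild type and 8624, 7108 and 6641 in mutant (log2 change -0.52 ± 0.11, adjusted p = 0.0102), the lowest estimate under complex I. Ndufa9, which sits where the peripheral arm meets the membrane arm, had 8112, 8633 and 8189 against 6904, 5812 and 5983 (log2 change -0.42 ± 0.10, adjusted p = 0.0164). Ndufc2, of the membrane arm, had 5641, 5443 and 5505 against 4658, 4063 and 3952 (log2 change -0.39 ± 0.10, adjusted p = 0.0227). Each of these was lower in every mutant library. Ndufb5 and Ndufa12 fell with adjusted p-values near the threshold (-0.39, adjusted p = 0.0441, and -0.40, adjusted p = 0.0480). On the other side of the threshold lay Ndufa10 (-0.28, adjusted p = 0.0565).

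Several small subunits of complex I had estimates near 0. Ndufa3 stood at 6775, 6898 and 6152 reads in wild type and 8063, 5657 and 6223 in mutant (log2 change -0.01 ± 0.13, adjusted p = 0.979). Ndufs4, a late-assembled subunit of the peripheral arm, stood at 4691, 5038 and 4529 and 5392, 4344 and 4391 (log2 change -0.02 ± 0.11, adjusted p = 0.924). Ndufa11, of the membrane arm, stood at 4768, 5042 and 4776 and 5351, 4526 and 4263 (log2 change -0.05 ± 0.11, adjusted p = 0.781). In these genes mutant replicate 1 was above every wild-type library, and the intervals of the log2 change ran from -0.30 to 0.29, -0.27 to 0.23 and -0.29 to 0.19. The members with a positive estimate were Ndufa13 (log2 change 0.13 ± 0.13, adjusted p = 0.533) and Ndufa1 (log2 change 0.07 ± 0.12, adjusted p = 0.727). Without mutant replicate 1 Ndufa13 turned to -0.01 and Ndufa1 to -0.05. Of the exon bases of Ndufa13, 30.0% also belong to Tssk6 on the opposite strand. Ndufa2, Ndufb7, Ndufv3 and Ndufb11 were between -0.11 and -0.06. The 14 accessory members not named so far had estimates from -0.38 (Ndufb4) to -0.12 (Ndufs5); none passed, and Ndufb2, Ndufb6, Ndufb8 and Ndufb9 showed no overlap between genotypes. Ndufb1, another small subunit, has a row named Ndufb1-ps, annotated as noncoding and so outside the rule, which stood at 6177 ± 219 in wild type and 6029 ± 854 in mutant (log2 change -0.04 ± 0.11, adjusted p = 0.823).

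In complex III, ubiquinol-cytochrome c reductase, the median log2 change was -0.37 and 5 of 8 members fell (62.5%, against 10.9% of all tested genes). The count was 0 without wild type replicate 2 and without mutant replicate 2, 2 without wild type replicate 1 or 3, 3 without mutant replicate 3, and 2 with the gene-property correction (median -0.20). Uqcr11, a small subunit, had the largest fall, from 9027, 10342 and 9403 reads in wild type to 7879, 5501 and 6335 in mutant (log2 change -0.56 ± 0.13, adjusted p = 0.0163). Uqcrfs1, the Rieske iron-sulfur protein that hands electrons on to cytochrome c1, had 7338, 6849 and 7080.4 against 5650.3, 4871 and 5457 (log2 change -0.41 ± 0.10, adjusted p = 0.0155). Both were apart between genotypes. The core proteins Uqcrc1 and Uqcrc2 fell from 20771, 22158 and 22192 to 18162, 16141 and 15499 (log2 change -0.39 ± 0.09, adjusted p = 0.0166) and from 8563, 8894 and 9269 to 7507, 6845 and 6563 (log2 change -0.36 ± 0.09, adjusted p = 0.0259). Uqcr10 had 6596, 7651 and 6943 against 6242, 4552 and 5051 (log2 change -0.43 ± 0.13, adjusted p = 0.0410). Uqcrq, which contacts cytochrome b, had 8645, 9388 and 8410.5 against 7932, 6270.1 and 7058, with no overlap, and did not pass (log2 change -0.32 ± 0.11, adjusted p = 0.0664). Uqcrb stood at 9955, 11078 and 10581 and 10163, 8006 and 7996 (log2 change -0.28 ± 0.11, adjusted p = 0.114), and Uqcrh, the hinge protein, at 8002, 8041 and 7452 and 7500.3, 6337 and 6347 (log2 change -0.22 ± 0.10, adjusted p = 0.153); in both, mutant replicate 1 lay inside the wild-type range.

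Cycs, the cytochrome c that carries electrons from complex III to complex IV and also acts in apoptosis, (chromosome 6, 50562563 to 50566538) had 9724, 10785 and 11149.9 reads in wild type and 7599, 6409 and 7473 in mutant. It was 1.47-fold lower (log2 change -0.56 ± 0.10, adjusted p = 0.00520) and fell in all 21 alternatives, as did Atp5g1, Atp5g2, Atp5a1 and Atp5b. Cyc1, its partner in complex III and no member by symbol, fell from 13723 ± 1182 to 9649 ± 755 (log2 change -0.51 ± 0.10, adjusted p = 0.00766).

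Complex IV, cytochrome c oxidase, had a median log2 change of -0.27 over its 14 tested nuclear members. Of these, 3 fell (21.4%, against 10.9% of all tested genes). The count was 8 without mutant replicate 1, 0 without wild type replicate 2, and 1 without wild type replicate 1 or mutant replicate 3; with the gene-property correction the median was -0.06. Cox7b had 9375, 10130.4 and 9303 reads in wild type and 7804, 6115 and 6224 in mutant (log2 change -0.52 ± 0.11, adjusted p = 0.0106). Cox5a, a matrix-side subunit, had 5003, 5274 and 4752 against 4191, 3553 and 3507 (log2 change -0.42 ± 0.11, adjusted p = 0.0222). Cox4i1, the largest nuclear subunit, had 13393, 13546 and 13274 against 11889, 10232 and 9044 (log2 change -0.38 ± 0.11, adjusted p = 0.0374). Each was lower in all mutant libraries. Cox8a (9066, 9717 and 8757 against 8799, 6778 and 6983, log2 change -0.30 ± 0.12, adjusted p = 0.103) and Cox6b1 (9863, 10494 and 9992 against 9715, 8080.0 and 7185, log2 change -0.29 ± 0.12, adjusted p = 0.110) did not pass, and Cox6a1, Cox6c, Cox7c, Cox7a2 and Cox5b were between -0.35 and -0.15. Cox7a2l, a factor that joins complexes III and IV into supercomplexes, was at -0.17 ± 0.12 (adjusted p = 0.354).

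Isoforms of complex IV known from other tissues stood below their widespread counterparts here. Cox4i2, of lung, had 0, 1.91 and 3.56 reads in wild type and 4.22, 2.72 and 9.93 in mutant, against 9044 or more for Cox4i1 in each library. Cox6a2, of heart and skeletal muscle, had 55.1, 42.0 and 24.0 against 12.7, 19.9 and 4.41. The Cox6a2 genotypes did not overlap, and its log2 change was the lowest of all members, but it rests on few reads and did not pass (log2 change -1.76 ± 0.59, adjusted p = 0.0623; DESeq2 0.0432, edgeR 0.0707). Cox7a1, of muscle, had 113, 116 and 127 against 163, 84.2 and 82.7 (log2 change -0.18 ± 0.30, adjusted p = 0.710), and Cox6b2, of testis, 1064, 922 and 761 against 905, 809 and 769 (log2 change -0.14 ± 0.15, adjusted p = 0.585), both overlapping. Per kilobase of exon in wild type, Cox6a1 stood at 16937 reads and Cox6a2 at 59.4, Cox6b1 at 14288 and Cox6b2 at 826, and Cox7a2 at 8485 and Cox7a1 at 222.

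Summed over all 81 nuclear members, normalised reads came to 760441, 815081 and 804976 in wild type and 685235, 583134 and 572838 in mutant, with no overlap and a mean change of -22.7%. By complex the mean sum changed by -28.1% in complex V, -25.7% in II, -22.4% in III, -18.1% in IV and -15.1% in I; abundant genes such as Atp5b weigh most in these sums. The 13 mitochondrial transcripts summed to 394852, 331269.9 and 332057 in wild type and 350660.0, 346236 and 308290.2 in mutant, with overlap. The nuclear sum was 1.93, 2.46 and 2.42 times the mitochondrial one in wild type and 1.95, 1.68 and 1.86 times in mutant; wild type replicate 1, which had the highest mitochondrial sum, lay within the mutant range. Mitochondrial protein transcripts made up 0.777 ± 0.088% of reads in wild type and 0.768 ± 0.038% in mutant (SD, n = 3). Counts of the mitochondrial ribosomal RNAs did not pass either, with mt-Rnr2 at a log2 change of 0.09 ± 0.14, adjusted p = 0.692 and mt-Rnr1 at 0.22 ± 0.19, adjusted p = 0.470.

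Of the 13 genes of the mitochondrial genome, none passed with limma or edgeR, 1 passed with DESeq2 and with voom (mt-Nd2), and 3 had an unadjusted p under 0.05. These 3 went in both directions. mt-Nd2, a membrane subunit of complex I, had 17309, 13331 and 13267 reads in wild type and 21591, 19784 and 16603 in mutant (log2 change 0.40 ± 0.13, adjusted p = 0.0599). Wild type replicate 1 was above mutant replicate 3, so the genotypes overlapped. mt-Nd4, another membrane subunit of complex I, had 20062, 18876 and 15193 against 25239, 25069 and 18976 (log2 change 0.35 ± 0.14, adjusted p = 0.106), with the same kind of overlap. mt-Co1, the catalytic subunit of complex IV, had 132722, 107995 and 117695 against 106919, 91713 and 91379.8 and was the only mitochondrial member with no overlap (log2 change -0.30 ± 0.11, adjusted p = 0.0712). mt-Nd2 was called higher in 9 of the 21 alternatives, mt-Nd4 higher in 3 and mt-Co1 lower in 2.

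The other 5 mitochondrial genes of complex I stayed within overlapping ranges. mt-Nd1 had 62883, 50981 and 54335 reads in wild type and 56998, 64817 and 57561 in mutant (log2 change 0.10 ± 0.10, adjusted p = 0.557). mt-Nd5 had 26048, 20082 and 19467 against 18569.7, 22485 and 21197 (log2 change -0.07 ± 0.13, adjusted p = 0.749). mt-Nd6, which lies on the other strand and overlaps mt-Nd5 by 14 bases, had 4949, 3263 and 3661 against 3955, 4418 and 3831 (log2 change 0.06 ± 0.15, adjusted p = 0.814). The kits used do not record the strand, so reads in such overlaps cannot be assigned. mt-Nd3 had 364, 333 and 290.0 against 445, 342 and 276 (log2 change 0.09 ± 0.21, adjusted p = 0.807). mt-Nd4l, at 38.2, 33.4 and 28.5 against 43.3, 39.8 and 33.1 (log2 change 0.21 ± 0.35, adjusted p = 0.712), had 112 reads per kilobase in wild type where mt-Nd4, which it overlaps by 7 bases, had 13094.

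In the other complexes, mt-Cytb, the cytochrome b of complex III, had 115344, 103043 and 96431 reads in wild type and 102646, 104649 and 87359 in mutant (log2 change -0.10 ± 0.10, adjusted p = 0.562). For complex IV, mt-Co2 had 3255, 2956 and 2358 against 2996, 2675 and 2442 (log2 change -0.07 ± 0.14, adjusted p = 0.760), and mt-Co3 had 7456, 6646 and 5911 against 7153, 6535 and 5535 (log2 change -0.06 ± 0.13, adjusted p = 0.777). These 3 overlapped between genotypes and had estimates from -0.10 to -0.06 on the log2 scale. The complex V gene mt-Atp6, of the proton channel, had 4192, 3528 and 3205 against 3893, 3544 and 2943 (log2 change -0.07 ± 0.14, adjusted p = 0.747). Its neighbour mt-Atp8, which shares 43 bases with it, had 231, 201 and 216 against 211, 164 and 156 (log2 change -0.30 ± 0.20, adjusted p = 0.340). Per kilobase in wild type, counted reads within the mitochondrial genome ran from 112 (mt-Nd4l) to 91730.3 (mt-Cytb). There mt-Co1 stood at 77327 and mt-Nd1 at 58585, while the neighbouring genes from mt-Co2 to mt-Nd4l stood at 8509 (mt-Co3) or less. Such counts need not follow transcript levels, since the handling of reads that match several places is not given.

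**Figure D4:**
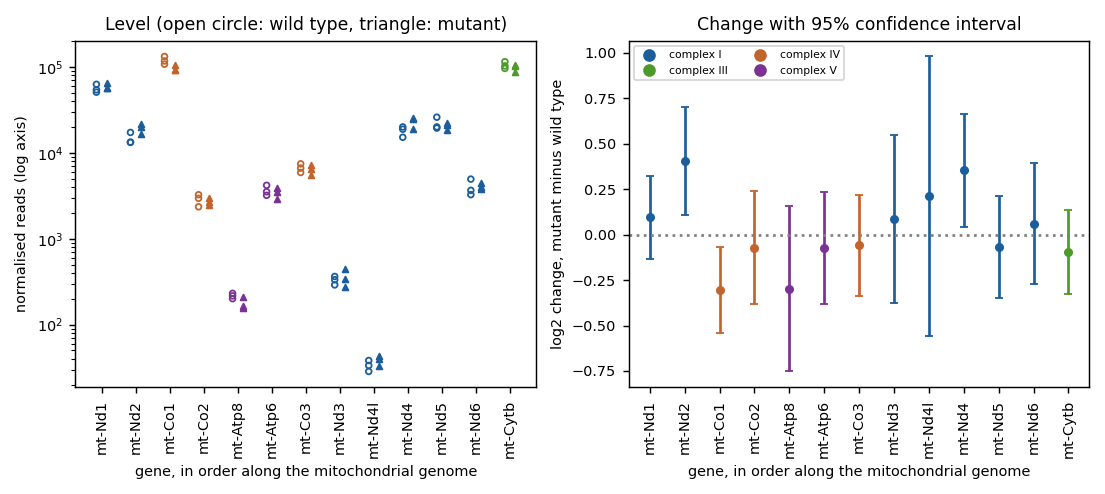
Left, normalised reads of the 13 mitochondrial protein genes on a log axis, in genome order, with circles for the 3 wild-type and triangles for the 3 mutant libraries. Right, the log2 change with its 95% confidence interval; the intervals of mt-Nd2 and mt-Nd4 lie above 0 and that of mt-Co1 below, and none of the 13 passed after limma's adjustment (mt-Nd2 did with DESeq2 and voom).

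Genes that assemble, supply or regulate the chain were read from the same fit, as lists of known function. Of the 4 nuclear subunits or inhibitors that the symbol rule misses, Cyc1, Ndufab1 (log2 change -0.50 ± 0.13, adjusted p = 0.0229) and Atpif1, the inhibitor of the ATP synthase (log2 change -0.52 ± 0.12, adjusted p = 0.0134), fell, and Usmg5, a small protein of complex V, did not pass (log2 change -0.31 ± 0.14, adjusted p = 0.145). Assembly factors had 10 of 49 lower (20.4%, against 10.9% of all tested genes) and 1 higher, with a median of -0.17. Those with the smallest p were Ndufaf6 (log2 change -0.75 ± 0.14, adjusted p = 0.00516), Ndufaf4 (log2 change -0.60 ± 0.12, adjusted p = 0.00636) and Nubpl (log2 change -0.61 ± 0.14, adjusted p = 0.0140), all of complex I, and Uqcc2 of complex III (log2 change -0.55 ± 0.12, adjusted p = 0.0120). Ndufaf3, another complex I factor, rose (log2 change 0.49 ± 0.13, adjusted p = 0.0239). Of 13 genes of coenzyme Q synthesis 5 fell (38.5%, against 10.9% of all tested genes; median -0.27), among them Pdss1 (-0.68), which makes the side chain, and Coq4 (-0.76) and Coq7 (-0.69), while Coq10b rose (0.56). Their adjusted p-values were 0.00452, 0.00499, 0.0108 and 0.0104.

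The nuclear genes that copy, transcribe and translate mitochondrial DNA had 13 of 36 lower (36.1%, against 10.9% of all tested genes) and 0 higher (against 7.94%), with a median of -0.33; edgeR, DESeq2 and voom also called 0 higher, as did an unadjusted p under 0.05. Lrpprc, which stabilises mitochondrial messenger RNAs, fell from 5989 ± 569 to 3429 ± 257 (SD, n = 3 each; log2 change -0.80 ± 0.11, adjusted p = 0.00112). Twnk, the helicase of mitochondrial DNA (log2 change -0.66 ± 0.11, adjusted p = 0.00276), Supv3l1, an RNA helicase of the mitochondrial degradosome (log2 change -0.61 ± 0.11, adjusted p = 0.00376), and Elac2, which cuts transfer RNAs from the precursors (log2 change -0.58 ± 0.10, adjusted p = 0.00446), fell too. Tfam, which packages and helps transcribe mitochondrial DNA, was at -0.24 ± 0.11 (adjusted p = 0.159), and Polrmt, the RNA polymerase, at -0.27 ± 0.10 (adjusted p = 0.0826); neither passed.

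Of 13 regulators of mitochondrial biogenesis, 2 fell (15.4%, against 10.9% of all tested genes) and 0 rose, with 1 of them (Sp1) higher at an unadjusted p under 0.05 and 0 higher by edgeR, DESeq2 or voom. The genes that fell encode coactivators of the PGC-1 family. Ppargc1b had 1103, 1140.1 and 1015 reads in wild type and 686, 430.1 and 591 in mutant (log2 change -0.96 ± 0.18, adjusted p = 0.00533), and Pprc1 had 4971, 5811 and 6008 against 2972, 3249 and 3258 (log2 change -0.82 ± 0.11, adjusted p = 0.000937). Ppargc1a was rare, at 9.54, 21.0 and 17.8 against 10.6, 32.6 and 43.0 (log2 change 0.66 ± 0.59, adjusted p = 0.474). Nrf1 and Gabpa, whose products bind motifs counted in the promoters above, were at -0.02 ± 0.10 (adjusted p = 0.929) and -0.01 ± 0.15 (adjusted p = 0.962). Of 9 tested carriers of the mitochondrial membranes 6 fell (66.7%, against 10.9% of all tested genes) and 4 with edgeR (against 10.2%). The ADP/ATP carriers Slc25a4 and Slc25a5 fell most, Slc25a4 from 7699, 8099 and 9313 to 4806, 3955 and 4061 (log2 change -0.97 ± 0.11, adjusted p = 0.000606) and Slc25a5 from 51481, 54298 and 57466 to 35066, 32457 and 32297 (log2 change -0.71 ± 0.09, adjusted p = 0.000674). The porin genes Vdac2 and Vdac3 fell by 0.43 and 0.41 on the log2 scale (adjusted p = 0.00764 and 0.0207).

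**Figure D5:**
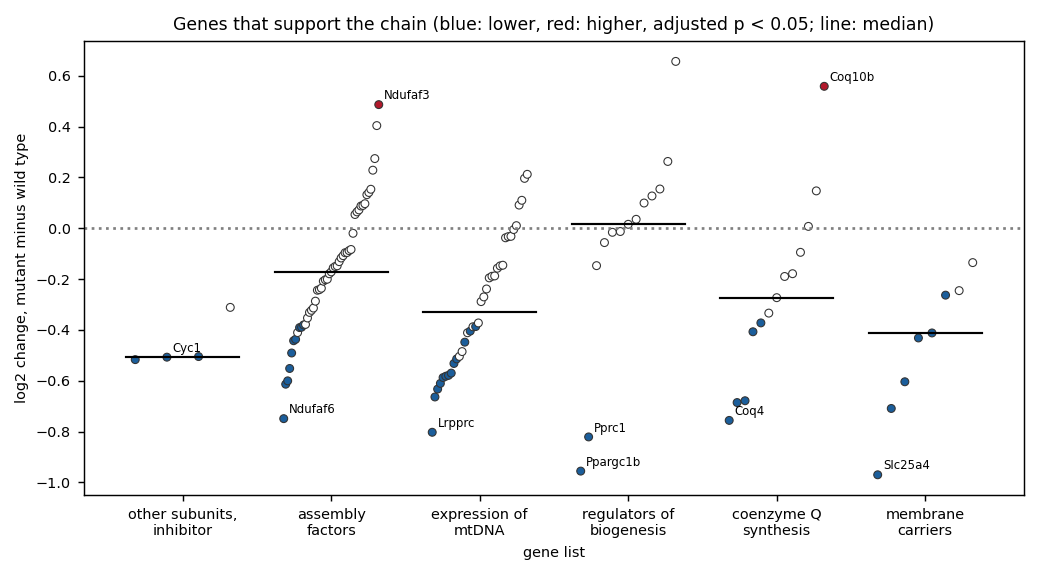
Log2 change, mutant minus wild type, of each tested gene in 6 lists around the chain (points; blue lower and red higher at a limma adjusted p under 0.05, white not passing; line, median of the tested genes). Slc25a31, with almost no reads in wild type, is not drawn; the coloured points lie below 0 except Ndufaf3 and Coq10b.

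Nearby and similar genes limit how exactly single members can be read. Exons of 28 of the 81 nuclear members overlap exons of another annotated gene, and in 11 members that gene covers 10% or more of the exon bases, of which 4 fell (Atp5o, Cox5a, Ndufb5 and Uqcrc2). Processed pseudogenes of the family are close copies of the messenger RNAs, and 11 were listed in the table, with at most 158 reads on average in wild type (Atp5l2-ps). The handling of reads that match several places is not given in the sources used here. That limit also covers the counts, sums and shares of the mitochondrial genes.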

How the data were processed

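RNA of 6 libraries was measured, 3 per genotype. According to the labels' protocols, full-length cDNA was made with SMART-Seq v4 and cut with Nextera XT, which keeps no strand. The processing notes of the submitters name STAR 2.5.3, featureCounts, DESeq2 1.20.0 and GRCm38. The deposited values are a signal per gene: reads scaled by the authors with a size factor for each library. In each library they are whole multiples of 1 step, and 100% of 126810 values gave whole reads within 0.1 reads. No source used here gives the annotation or the counting options.

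Symbols, positions and exon lengths came from GENCODE M21 (GRCm38). Genotypes were compared with limma 3.58.1 (R 4.3.3; lmFit, then eBayes with a trend) on values as log2(value + 1), mutant minus wild type, two-sided. It covered the 17815 genes whose mean reached 10, with Benjamini-Hochberg adjustment over all of them at 0.05. Adjusted p-values belong to this limma fit where no other tool is given, "fell" and "rose" mean that it passed, and errors of log2 changes are standard errors. edgeR 4.0.16, DESeq2 1.42.0 and voom ran on the recovered reads. The 21 alternatives also cover scaling, pseudocount, filter, variance model, gene properties, the replicate block and leaving out each library. The limma and edgeR fits were tested on simulated counts with each gene's own dispersion. False calls made up a larger share of the calls than the threshold of 0.05 allows. Most of the smallest changes put in, 1.5-fold, were missed. Of the 80 tested nuclear members, 4 were lower by 1.5-fold or more, among them Cox6a2, which did not pass. Single calls are therefore uncertain, most of all near the threshold. Values per library are given for all mitochondrial members, for up to 6 nuclear members per complex with the smallest p and, of those with a mean of 50 or more, up to 3 with the largest, and for isoform pairs and some supporting genes. One member is counted but not reported here. The members and lists were chosen with earlier results of these data known. No library repeated another: within a genotype, counts of any pair gave a chi-square of 27.2 or more for each degree of freedom.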

Additional observations from a re-analysis of the deposited data

How the results depend on the processing

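In each of the 21 alternatives nuclear members fell, and none rose except Ndufa1 and Ndufa13 under the correction for exon length, GC content and level. No call of a member turned to the opposite direction, and 25 members, 7 of them mitochondrial, changed the sign of an estimate that passed in neither fit. Without a mean-variance trend the calls numbered 1916 over all genes, 5 among nuclear members and 17 among supporting genes (3352, 32 and 41 otherwise). The 5 nuclear ones were Cycs and 4 members of complex V, with 0 in complexes I, II, III and IV. A fall in every complex was thus not called in that fit. Leaving out 1 library at a time gave 1896 to 2793 calls over all genes, 10 to 52 among nuclear, 0 to 2 among mitochondrial and 19 to 36 among supporting genes. The lowest counts of all, nuclear and supporting genes came without wild type replicate 2. Calls on supporting genes were 27 without wild type replicate 3 and 27 without mutant replicate 2, and calls on nuclear members dropped more than 1.5 times when the library left out was wild type replicate 1 (19) or 3 (17), or mutant replicate 2 (14) or 3 (17); the cause was not tested, beyond there being 1 library fewer. Among mitochondrial genes 1 passed (mt-Nd2, higher) when every library had the same total, with robust variance, with library weights, with DESeq2 and with voom.

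The labels give both genotypes replicate numbers 1 to 3, but libraries that share a number did not vary together (correlations of deviations -0.022, -0.066 and -0.0097), so the numbers are not taken to pair them. With a replicate block 25 nuclear members fell, 24 of them among the 32, and 3 mitochondrial genes passed (mt-Nd2 and mt-Nd4 higher, mt-Co1 lower). The block with the correction for exon length, GC content and level gave 19 nuclear calls (17 lower) and 2 mitochondrial ones. With the correction alone 21 nuclear members fell and 2 rose, and with equal totals 24 fell.

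With 3 libraries a genotype, 48 nuclear members did not pass. In 12 of these all mutant libraries lay below all wild-type ones, a pattern that 20.3% of all tested genes showed, called or not. The intervals of 41 of the 48 reach below the smallest log2 change that passed, so these data do not show that they were unchanged. Cox6a2, mt-Nd4l, Cox7a1 and mt-Nd3, with few reads, have the widest intervals.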
